A study of Mus musculus with 12 samples.

Results

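The epidermal differentiation complex is a cluster of genes on mouse chromosome 3 that encode the proteins of the outer skin barrier and a set of small calcium-binding proteins. Its members here were the probe sets whose platform gene symbol starts with Lce, Sprr or S100a, or is Lor, Ivl, Flg, Flg2, Hrnr, Rptn, Crnn, Tchh or Tchhl1. They numbered 48 of the 22626 probe sets tested. Of these, 13 belonged to the Lce subfamily, 11 to Sprr and 14 to S100a, and 10 to the genes named singly. A single gene symbol was given for 45 probe sets, which cover 37 genes, and several symbols for the other 3. The annotation listed no probe set for Flg2, Crnn or Tchhl1, which were not analysed here. All 48 lie on chromosome 3 in the RefSeq gene table, and gene order below is taken from that table.

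In the upper epidermis a dividing basal keratinocyte stops cycling, moves outwards and ends as a flat dead cell whose membrane is replaced by a cross-linked protein shell, the cornified envelope. Involucrin is laid down early as a scaffold, small proline-rich proteins (Sprr) act as cross-bridges, and loricrin and late cornified envelope (Lce) proteins are added last. Filaggrin and its relatives pack the keratin filaments. S100 proteins bind calcium, the ion that drives keratinocyte differentiation, and several are released as alarm signals.

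Expression was measured on 12 Affymetrix mouse arrays, 1 for each RNA sample. There were 5 primary keratinocyte cultures, each made from the pooled cells of 5 newborn mice, kept in low-calcium medium for at most 3 days and never passaged. Whole skin came from mice aged 30 days in 5 samples and from newborn mice in 2 samples. Cultures 1 and 2 and every 30-day skin sample had a mixed C57, DBA and FVB background, and cultures 3 to 5 and both newborn skin samples were FVB, so strain and age coincide within skin. Whether each skin sample is a different animal is not stated, so a p-value here reflects sample-to-sample spread that could be partly technical. Some arrays were close pairs. The SD of their log2 differences was 0.16 for cultures 1 and 2, against 0.23 to 0.42 for other culture pairs. In 30-day skin it was 0.17 for replicates 2 and 3 and 0.18 for 4 and 5, against 0.29 to 0.42. For the newborn samples it was 0.20. An alternative below averages these pairs, leaving 1 newborn array and 1 mixed-strain culture array. A shared source is not stated, and it would make the p-values too small. The deposited values are log2 intensities made by RMA, which summarises the probes of a probe set after background correction and quantile normalisation. A difference of 1 is therefore a 2-fold difference in signal, and a probe set's level cannot be set against that of another probe set.

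Marker genes show what each kind of sample held. The array means of the basal keratinocyte markers were 10.49 to 10.92 in culture, 9.48 to 9.70 in 30-day skin and 9.59 to 9.69 in newborn skin. Fibroblast markers averaged 5.88 to 6.63 in culture, 11.11 to 11.51 in 30-day skin and 11.58 to 11.66 in newborn skin. Hair shaft markers averaged 5.30 to 5.56 in culture, 11.23 to 12.14 in 30-day skin and 9.71 in both newborn samples. Skeletal muscle markers averaged 4.94 to 5.24 in culture, 10.74 to 11.42 in 30-day skin and 11.03 to 11.08 in newborn skin. In bulk samples such as these, fewer cells of a type and less RNA per cell cannot be told apart. 30-day skin replicate 1 stood apart from the rest of its group. The log2 gap between its 3' and 5' actin control sets was 1.74, and in the other 30-day samples it was 0.67 to 0.82. This gap, which grows with RNA degradation or short cDNA, was 0.21 to 0.74 in culture and 0.99 and 1.14 in newborn skin.

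The genes differ in the sequence before their start sites, and the subfamilies that moved in opposite directions below are shown first. Promoter windows from RefSeq (GRCm38.p6) matched 37 of 42 member symbols, with 41 windows in all. They depend on the annotated start, and a match is a description of letters, not a binding site. Over their last 100 bases the Lce1 windows were 53.6% to 90.0% identical over 28 pairs, with a median of 74.8%. The median over 28 pairs of Sprr2 windows was 53.0%. Both medians pool unlike windows. Lce1l was 53.6% to 58.0% identical to the other Lce1 windows, which were 66.3% to 90.0% identical to each other. Sprr2d, Sprr2f, Sprr2h, Sprr2i and Sprr2k were 62.0% to 80.0% identical to each other. They were 45.4% to 53.0% identical to Sprr2a1, Sprr2a2 and Sprr2a3. The longest stretch of letters held by at least 6 of the 8 Lce1 windows was ACTGTCTCACAGG, which began 64 or 65 bases before the start. It lay in neither Lce3 window and in 7 of the 32851 windows of all genes (0.0213%, both strands, 250 bases before the start), which were those of Lce1a1, Lce1a2, Lce1b, Lce1d, Lce1e, Lce1h and Lce1i. Because it was picked from these sequences, its frequency in them supports nothing. Lce1g carried it with the substitution A11T, counted from 1 at the 5' end of the stretch. The 100 bases before the start are printed 5' to 3' on the gene's strand, with the stretch in capitals, for 4 genes that carry it and for Lce1g and Lce3c, which do not. Their positions, with the strand in parentheses, are Lce1a1 chr3:92648308-92648407 (minus), Lce1d chr3:92687211-92687310 (minus), Lce1h chr3:92765066-92765165 (minus), Lce1i chr3:92778900-92778999 (minus), Lce1g chr3:92752339-92752438 (minus) and Lce3c chr3:92944386-92944485 (plus).
Lce1a1: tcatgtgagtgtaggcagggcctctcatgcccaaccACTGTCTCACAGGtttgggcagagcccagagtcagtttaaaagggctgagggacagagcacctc
Lce1d: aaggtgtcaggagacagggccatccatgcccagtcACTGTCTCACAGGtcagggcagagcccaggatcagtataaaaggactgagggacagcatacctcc
Lce1h: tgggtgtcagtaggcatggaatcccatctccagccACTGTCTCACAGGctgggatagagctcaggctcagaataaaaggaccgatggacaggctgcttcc
Lce1i: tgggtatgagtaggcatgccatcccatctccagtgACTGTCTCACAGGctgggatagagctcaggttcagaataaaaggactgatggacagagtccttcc
Lce1g: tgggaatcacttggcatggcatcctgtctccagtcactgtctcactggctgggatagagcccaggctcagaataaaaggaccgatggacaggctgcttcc
Lce3c: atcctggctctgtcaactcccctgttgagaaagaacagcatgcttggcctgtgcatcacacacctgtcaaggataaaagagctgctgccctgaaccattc

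The motif TGANTCA, where N is any base, is a loose form of the AP-1 site, and the Sprr1b match below is TGAATCA. It was sought on either strand within 250 bases before the start. The windows with it were 5 of 8 for Sprr2, 2 of 3 for other Sprr genes and 4 of 6 for the single genes. They were 2 of 14 for S100a, 0 of 8 for Lce1 and 0 of 2 for Lce3. The motif was present in 6.75% of all 32851 windows. A TATAAA box within 100 bases of the start was present in 5 of 8 Sprr2 windows, 3 of 3 other Sprr windows, 5 of 6 windows of the single genes, 3 of 14 S100a windows, 1 of 8 Lce1 windows and 0 of 2 Lce3 windows, against 5.56% of all windows. The letters AATAAAA, chosen after reading the windows, stood 30 bases before the start in 5 of 8 Lce1 windows, and 2.78% of all windows held them within 100 bases on either strand. The windows of Sprr2a1, Sprr2a2 and Sprr2a3 hold neither motif, and the first 2 of them were identical over the last 100 bases. The sequences below cover 200 bases before the start for Sprr genes and Ivl and 100 bases for Lor and Hrnr, with both motifs in capitals. They stand at Sprr2a1 chr3:92215635-92215834 (plus), Sprr2d chr3:92338940-92339139 (plus), Sprr2h chr3:92385485-92385684 (plus), Sprr2i chr3:92407791-92407990 (plus), Sprr2k chr3:92432382-92432581 (plus), Sprr1b chr3:92438780-92438979 (minus), Lor chr3:92083143-92083242 (minus), Ivl chr3:92573736-92573935 (minus) and Hrnr chr3:93319649-93319748 (plus).
Sprr2a1: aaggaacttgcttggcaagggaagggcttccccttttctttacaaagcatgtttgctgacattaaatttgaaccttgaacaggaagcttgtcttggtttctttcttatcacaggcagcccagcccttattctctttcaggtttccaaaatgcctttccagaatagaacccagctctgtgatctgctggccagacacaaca
Sprr2d: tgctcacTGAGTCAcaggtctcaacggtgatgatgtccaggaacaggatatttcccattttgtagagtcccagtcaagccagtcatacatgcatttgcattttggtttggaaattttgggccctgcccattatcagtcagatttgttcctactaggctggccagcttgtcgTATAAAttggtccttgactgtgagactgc
Sprr2h: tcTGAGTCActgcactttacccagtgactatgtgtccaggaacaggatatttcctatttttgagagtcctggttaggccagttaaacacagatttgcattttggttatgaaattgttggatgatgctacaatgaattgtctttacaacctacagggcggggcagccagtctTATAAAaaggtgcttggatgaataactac
Sprr2i: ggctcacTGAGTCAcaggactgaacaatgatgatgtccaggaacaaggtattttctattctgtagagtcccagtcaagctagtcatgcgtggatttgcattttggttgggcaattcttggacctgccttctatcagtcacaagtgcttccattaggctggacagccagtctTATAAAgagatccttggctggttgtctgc
Sprr2k: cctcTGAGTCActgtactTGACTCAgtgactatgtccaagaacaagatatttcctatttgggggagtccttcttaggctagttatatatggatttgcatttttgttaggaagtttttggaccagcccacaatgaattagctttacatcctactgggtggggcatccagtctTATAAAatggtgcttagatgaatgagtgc
Sprr1b: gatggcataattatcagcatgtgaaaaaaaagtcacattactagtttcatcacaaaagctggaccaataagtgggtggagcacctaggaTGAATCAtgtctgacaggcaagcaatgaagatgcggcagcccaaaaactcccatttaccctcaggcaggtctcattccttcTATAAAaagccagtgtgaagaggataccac
Lor: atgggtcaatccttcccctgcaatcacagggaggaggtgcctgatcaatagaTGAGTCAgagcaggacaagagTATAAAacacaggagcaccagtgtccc
Ivl: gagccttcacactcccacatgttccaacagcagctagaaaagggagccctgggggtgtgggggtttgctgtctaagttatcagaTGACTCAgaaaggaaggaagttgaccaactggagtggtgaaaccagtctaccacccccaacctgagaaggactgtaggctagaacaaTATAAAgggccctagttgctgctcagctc
Hrnr: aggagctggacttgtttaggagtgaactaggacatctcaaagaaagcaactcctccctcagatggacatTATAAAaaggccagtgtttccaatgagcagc

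Against newborn skin, the tissue of the same age, cultures had less of the late envelope genes and more of the Sprr genes. Of the 48 member probe sets, 23 were lower and 11 higher in culture than in newborn skin, where 14.7% of all 22626 probe sets were lower and 17.6% higher (limma, Benjamini-Hochberg adjusted p under 0.05 over all probe sets). The median log2 difference was -0.45 over the members and 0.04 over all probe sets. Against 30-day skin, 22 members were lower and 13 higher in culture, with backgrounds of 18.2% and 25.1%, and the median was -0.24 against 0.03 over all. Both comparisons use the same cultures, so they are given side by side and not as repeats of each other. The split by subfamily was sharp: against newborn skin 11 of 13 Lce sets and 7 of 10 sets of the single genes were lower and none higher, and 7 of 11 Sprr sets were higher and none lower. S100a divided, with 5 of 14 lower and 4 higher. Scaling each array by its keratinocyte junction genes, whose mean was 0.77 higher in culture than in newborn skin, lowers every log2 difference by 0.77 and turns the members' split into 34 lower and 8 higher, where 78.1% of all probe sets were then lower and 3.04% higher. Under it 5 Sprr sets were still higher and 2 lower, and S100a6 turned to -0.40. The higher calls for Sprr2i and Sprr2j-ps were lost, at 0.15 and 0.31 (limma adjusted p = 0.425 and 0.274). The Lce1 sets were already lower, so this scaling could not change their direction. Members that pass the threshold in none of the unscaled comparisons were then called lower against newborn skin: Lce3a at -0.54, Lce3c at -0.56, the dimmest Lor set at -0.98, S100a14 at -0.69, S100a5 at -0.63, Sprr3 at -0.61 and 2 Rptn sets at -0.56 and -0.54.

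**Figure D1:**
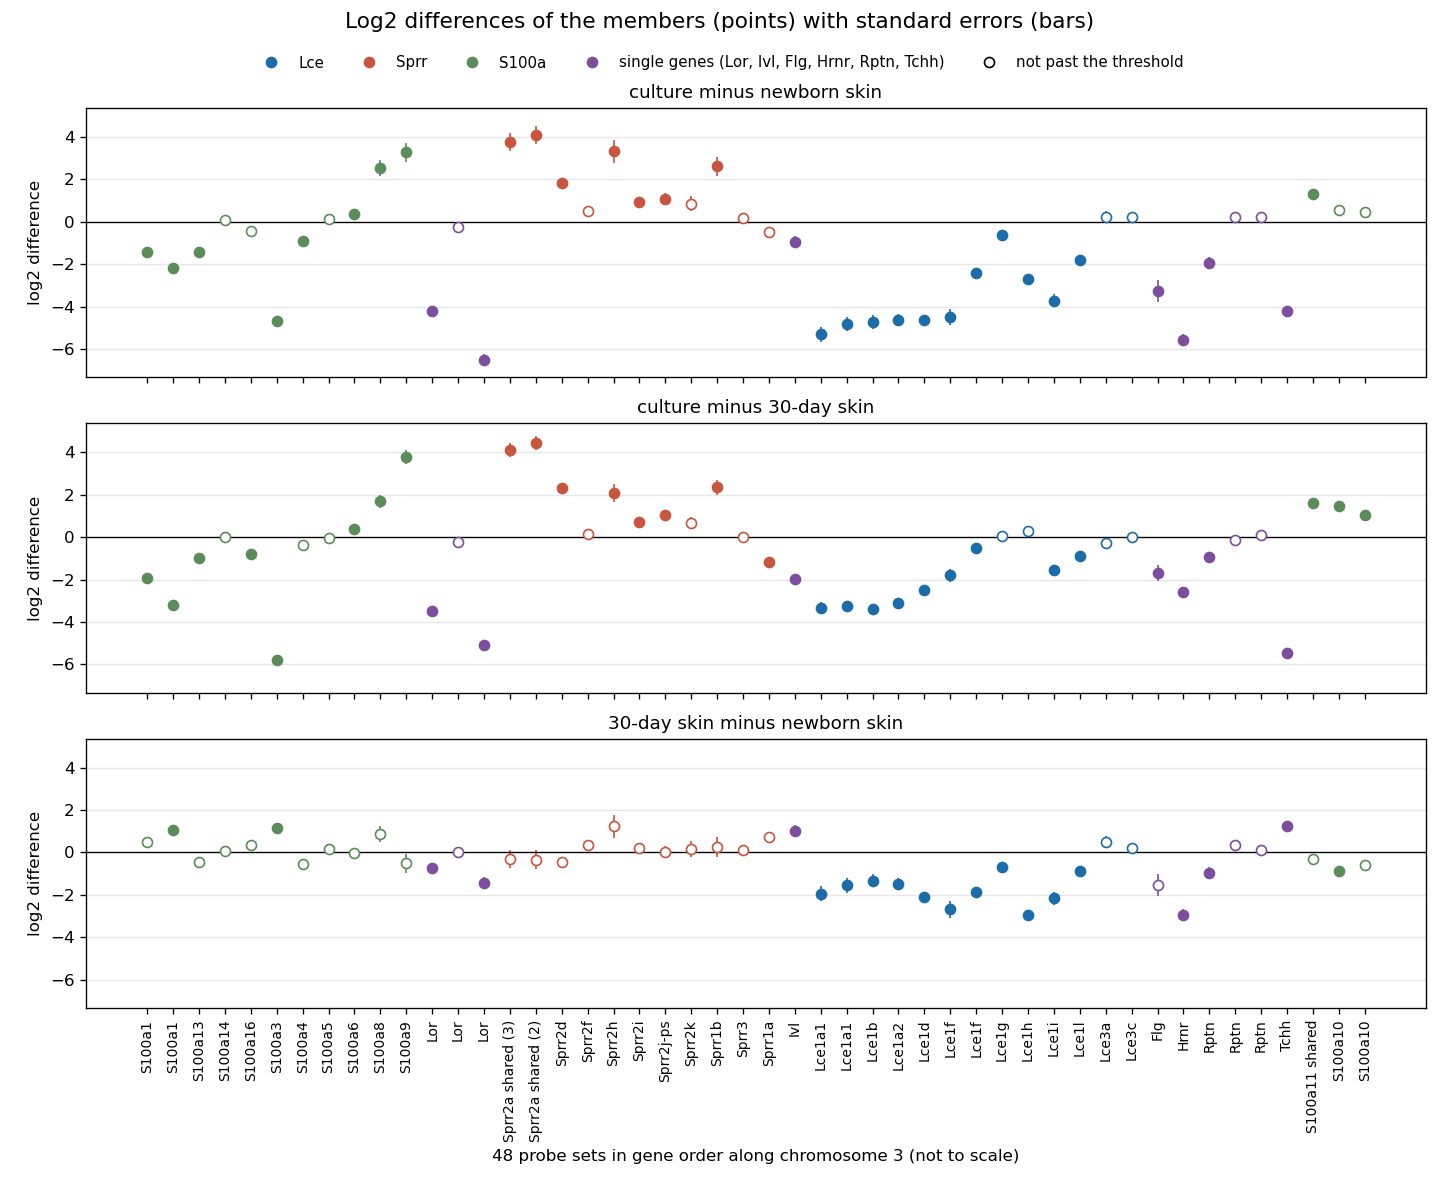
Log2 differences (vertical axis) of the 48 member probe sets in gene order along chromosome 3 (horizontal axis, not to scale) for culture minus newborn skin, culture minus 30-day skin and 30-day skin minus newborn skin. Points are limma estimates, bars are standard errors, colours are subfamilies and open points missed the threshold; the Lce1 block lies below 0 and most Sprr points above 0 in the top panel.

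**Figure D2:**
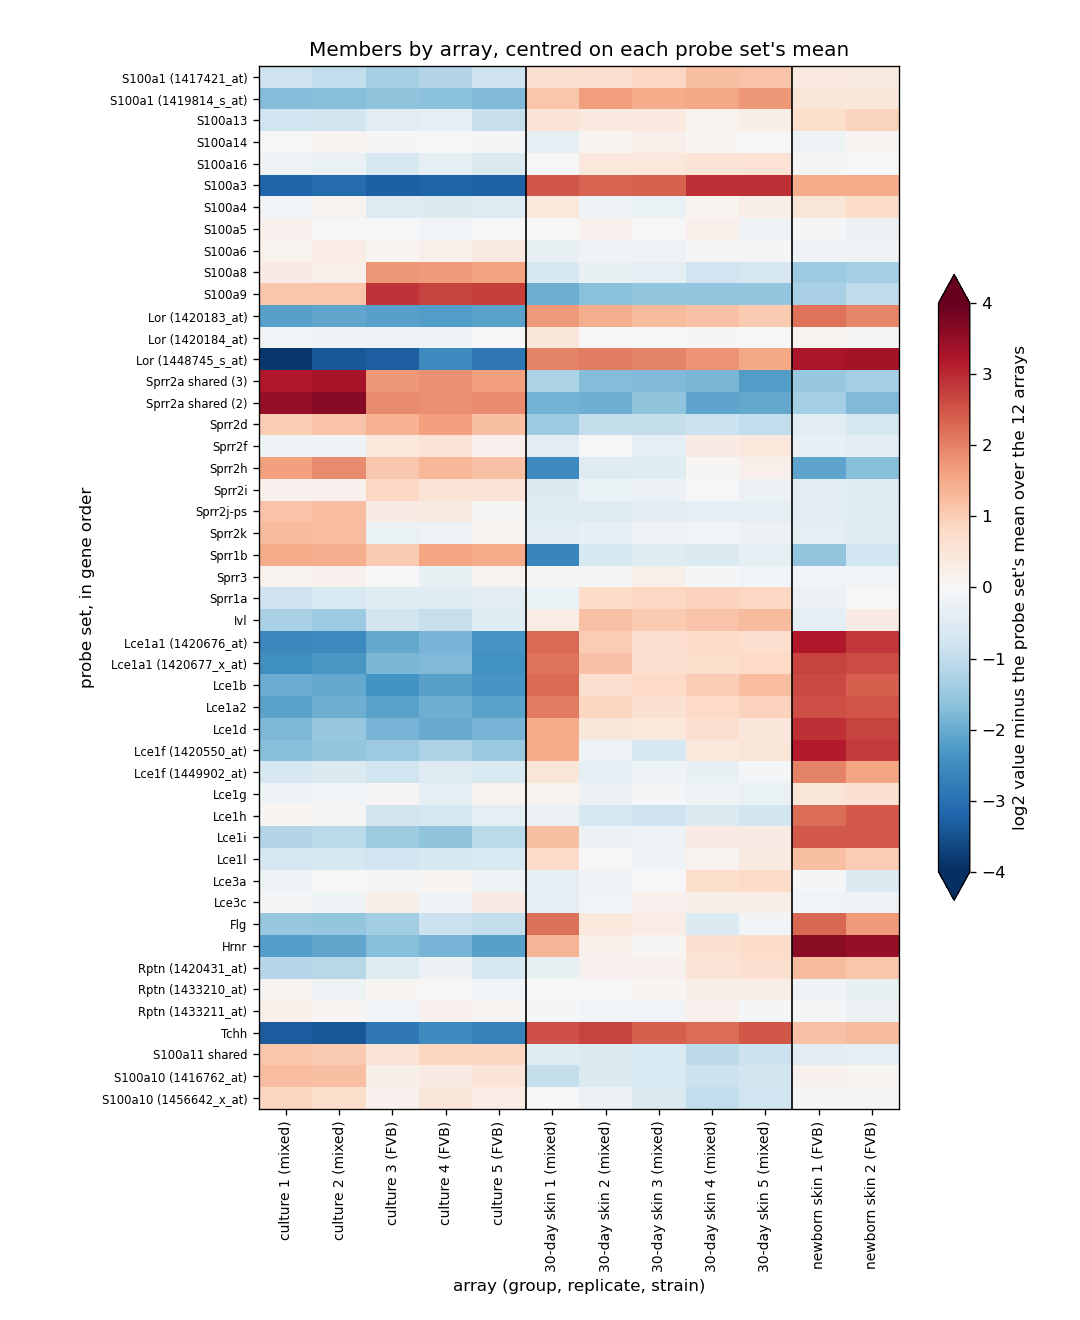
Each member probe set (rows, in gene order) in each of the 12 arrays (columns: culture, 30-day skin, newborn skin, with strain), as the log2 value minus the probe set's mean over the arrays. Red is above and blue below the mean. The Lce1 rows are darkest red in newborn skin and, apart from some cells of Lce1g and Lce1h, blue in culture. The Sprr2a rows are red in culture, darkest in the mixed-strain cultures 1 and 2.

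The Lce1 genes encode small cysteine- and glycine-rich proteins added to the envelope late. All 11 Lce1 probe sets were lower in culture than in newborn skin, with a median log2 difference of -4.49. Lce1b had log2 values of 5.67, 5.61, 5.28, 5.49 and 5.32 in culture, 9.94, 8.32, 8.47, 8.64 and 8.89 in 30-day skin and 10.30 and 10.06 in newborn skin. The 3 groups did not overlap for this gene, with culture lowest and newborn skin highest. The log2 difference was -4.71 ± 0.32 (SE) against newborn skin (adjusted p = 7.56e-08) and -3.38 ± 0.24 against 30-day skin (adjusted p = 7.43e-08). Lce1a1 differed from newborn skin by -4.82 ± 0.34 on the _x_at probe set and by -5.30 ± 0.36 on the other, Lce1a2 by -4.62 ± 0.28 and Lce1d by -4.61 ± 0.24. These sequences are alike, and 5 of the 13 Lce probe sets end in _x_at, the mark of probes shared between similar transcripts, so single members of the subfamily are uncertain.

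Lce1h and Lce1g behaved otherwise towards 30-day skin. Lce1h had log2 values of 8.55, 8.53, 7.75, 7.79 and 8.10 in culture, 8.26, 7.78, 7.66, 7.92 and 7.75 in 30-day skin and 10.72 and 10.94 in newborn skin. Culture and 30-day skin overlapped and both lay well below newborn skin. The culture differed from newborn skin by -2.69 ± 0.22 (limma adjusted p = 6.47e-07), and from 30-day skin by 0.27 ± 0.17, which missed the threshold (adjusted p = 0.229). All 30-day skin was of mixed strain. With strain as a covariate Lce1h was 0.66 higher in culture than in 30-day skin (adjusted p = 0.00337). Strain does not vary within either skin group, so the covariate's strain effect comes from the cultures alone and is applied to skin. Lce1g showed a smaller change against newborn skin, -0.64 ± 0.14 (adjusted p = 0.00298, and 0.05 without newborn skin replicate 2), and 0.04 ± 0.11 against 30-day skin (adjusted p = 0.8). The other 9 Lce1 sets were lower in culture than in 30-day skin, although 1 Lce1f set missed the threshold with strain as a covariate (adjusted p = 0.0561). The Lce3 genes, whose human counterparts are induced in injured and psoriatic skin, passed the threshold in no comparison. Lce3c had log2 values of 7.32, 7.18, 7.59, 7.24 and 7.69 in culture, 6.96, 7.26, 7.54, 7.62 and 7.59 in 30-day skin and 7.25 and 7.15 in newborn skin, and all 3 groups overlapped. Lce3a differed from newborn skin by 0.23 ± 0.27 (adjusted p = 0.586).

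**Figure D3:**
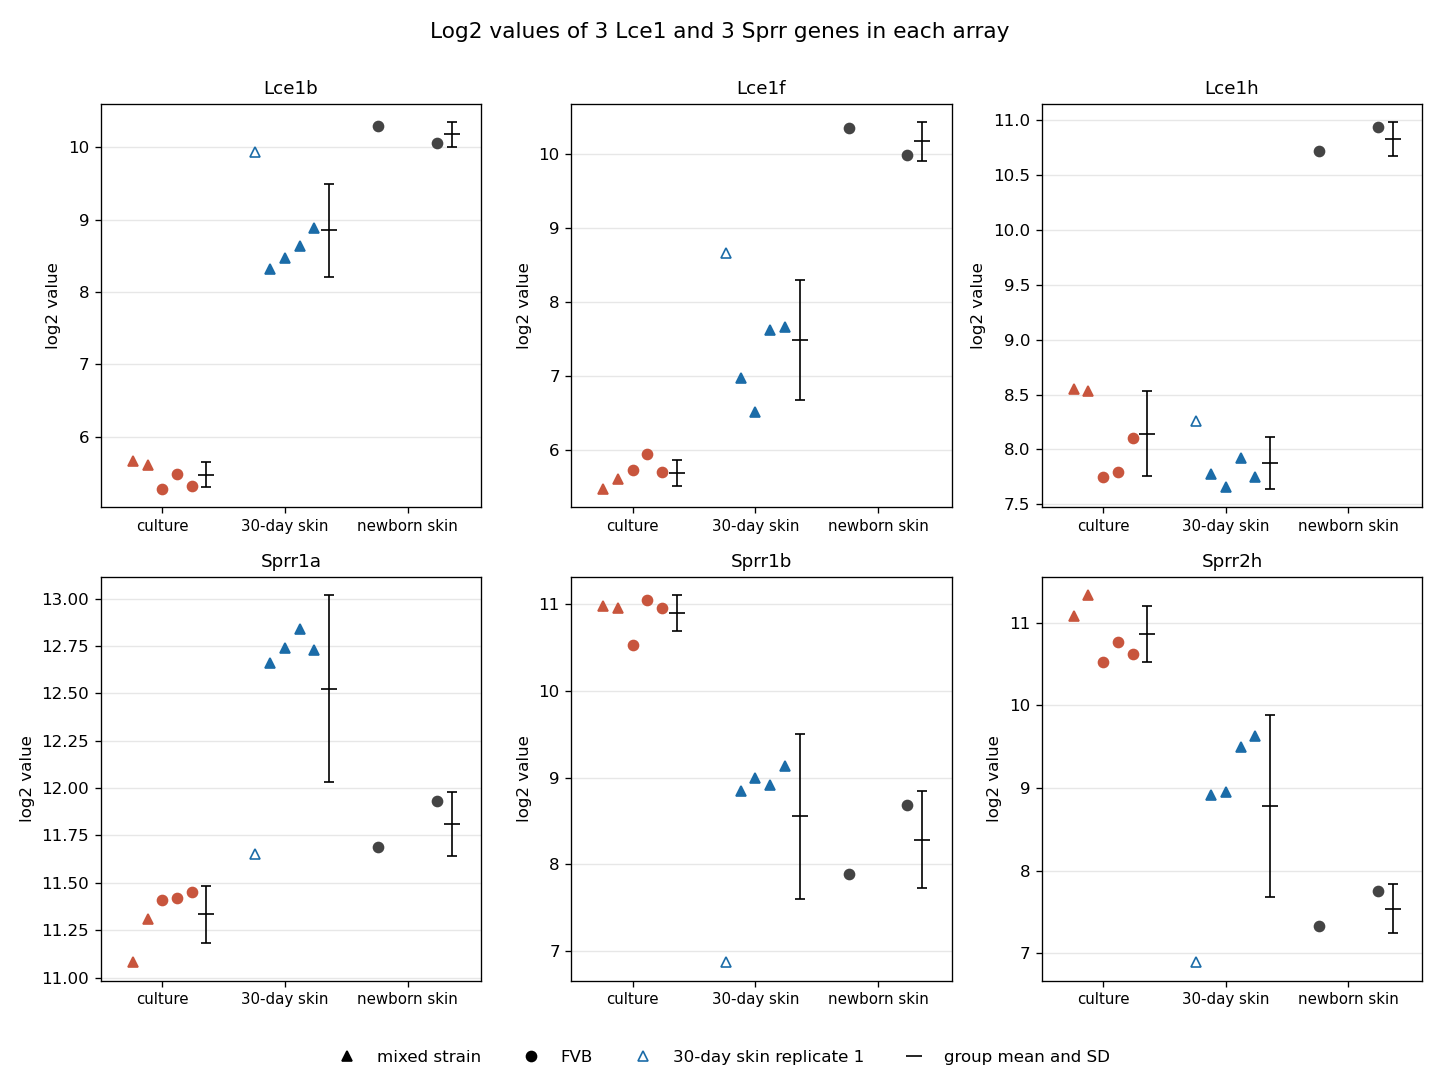
Log2 values (vertical axis) in each array of culture, 30-day skin and newborn skin for 3 Lce1 genes (top) and 3 Sprr genes (bottom). Triangles are mixed-strain and circles FVB samples, the open triangle is 30-day skin replicate 1, and black bars are group means and SDs; this replicate lies above the other 30-day samples for the Lce1 genes and below them for the Sprr genes.

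Among the genes named singly, loricrin (Lor), the most abundant protein of the epidermal envelope, was lower in culture on 2 of its 3 probe sets. On the probe set with the highest mean, Lor had log2 values of 7.42, 7.52, 7.43, 7.35 and 7.47 in culture, 11.31, 11.06, 10.87, 10.77 and 10.64 in 30-day skin and 11.76 and 11.54 in newborn skin. The log2 difference was -4.21 ± 0.15 against newborn skin (limma adjusted p = 1.64e-10) and -3.49 ± 0.11 against 30-day skin (adjusted p = 2.65e-11). A second Lor set gave -6.50 ± 0.26 and -5.07 ± 0.20 for these differences. The third missed the threshold in each comparison, with values of 4.89 to 5.04 in culture, 5.04 to 5.51 in 30-day skin and 5.10 to 5.19 in newborn skin, and a log2 difference of -0.22 ± 0.13 against newborn skin (adjusted p = 0.225).

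Hornerin and filaggrin are S100 fused-type proteins of the granular layer, made as large repeats. Hrnr had log2 values of 3.28, 3.41, 3.79, 3.61 and 3.31 in culture, 6.83, 5.68, 5.52, 6.10 and 6.22 in 30-day skin and 9.09 and 8.97 in newborn skin. The groups formed 3 separate ranges, and the log2 difference of culture from newborn skin was -5.55 ± 0.27 (limma adjusted p = 3.26e-09). Flg had 6.53, 6.50, 6.65, 7.19 and 7.10 in culture, 10.23, 8.45, 8.34, 7.49 and 7.93 in 30-day skin and 10.33 and 9.75 in newborn skin. Culture was below every skin sample, with a log2 difference of -3.25 ± 0.52 against newborn skin (adjusted p = 0.000245) and of -1.70 ± 0.39 against 30-day skin (adjusted p = 0.00279). The 10.23 of 30-day skin replicate 1 lay within the newborn range and above the other 30-day samples. Repetin (Rptn), a related matrix protein, had 4.37, 4.40, 5.02, 5.28 and 4.87 in culture, 5.21, 5.67, 5.69, 6.01 and 6.15 in 30-day skin and 6.77 and 6.63 in newborn skin on its brightest set. It was lower in culture than in newborn skin by 1.92 ± 0.26 (adjusted p = 6.17e-05), and its other 2 probe sets passed the threshold in no comparison.

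Involucrin (Ivl) and trichohyalin (Tchh) had their highest group means in 30-day skin. Ivl had log2 values of 5.25, 5.08, 5.81, 5.61 and 6.05 in culture, 6.84, 7.70, 7.59, 7.67 and 7.79 in 30-day skin and 6.17 and 6.86 in newborn skin. Culture was lower by 1.96 ± 0.22 against 30-day skin (limma adjusted p = 6.16e-06) and by 0.96 ± 0.29 against newborn skin (adjusted p = 0.0201). The comparison with newborn skin gave a log2 difference of -0.61 with adjusted p = 0.291 without newborn skin replicate 2. Trichohyalin is a protein of the hair's inner root sheath. Tchh had 5.41, 5.36, 5.90, 6.19 and 6.05 in culture, 11.34, 11.44, 11.14, 10.98 and 11.22 in 30-day skin and 9.93 and 10.02 in newborn skin, without overlap. It differed by -5.45 ± 0.16 from 30-day skin (adjusted p = 8.27e-12) and by -4.19 ± 0.21 from newborn skin (adjusted p = 4.32e-09). Root sheath markers moved in the same way, with array means of 5.40 to 5.73 in culture, 10.97 to 11.76 in 30-day skin and 10.49 to 10.59 in newborn skin, and their part in the Tchh difference was not tested.

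**Figure D4:**
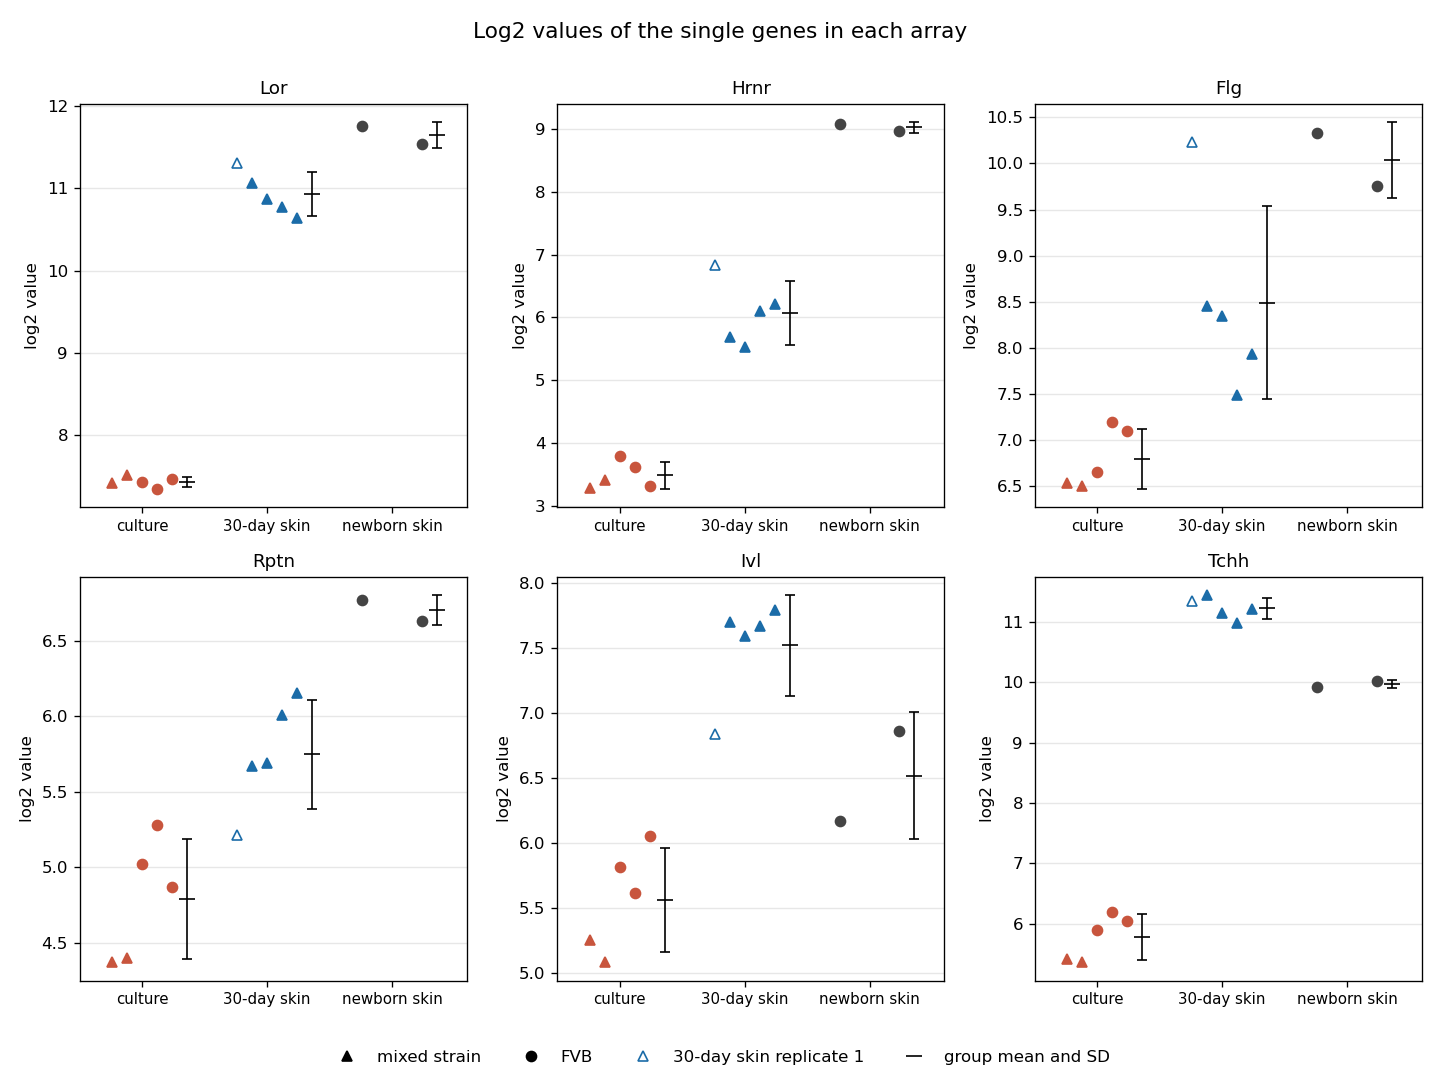
Log2 values (vertical axis) of the 6 single genes in each array of culture, 30-day skin and newborn skin, on the probe set with the highest mean. Triangles are mixed-strain and circles FVB samples, the open triangle is 30-day skin replicate 1, and black bars are group means and SDs; by group mean, culture is lowest for each gene, newborn skin is highest for Lor, Hrnr, Flg and Rptn, and 30-day skin is highest for Ivl and Tchh.

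The Sprr subfamily went the other way. The probe set shared by Sprr2a1 and Sprr2a2 had log2 values of 12.37, 12.52, 10.79, 10.72 and 10.77 in culture, 7.01, 6.95, 7.29, 6.79 and 6.86 in 30-day skin and 7.52 and 7.14 in newborn skin. Every culture lay more than 3 above every skin sample. The log2 difference was 4.10 ± 0.44 against newborn skin (limma adjusted p = 7.99e-06) and 4.45 ± 0.34 against 30-day skin (adjusted p = 1.36e-07). The set shared with Sprr2a3 as well gave 3.78 ± 0.42 and 4.10 ± 0.32. Because these sets match several genes, the rise cannot be assigned to Sprr2a1, Sprr2a2 or Sprr2a3.

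Sprr2h had log2 values of 11.08, 11.33, 10.52, 10.76 and 10.62 in culture, 6.89, 8.92, 8.95, 9.50 and 9.63 in 30-day skin and 7.33 and 7.75 in newborn skin. Culture was higher than newborn skin by 3.32 ± 0.54 (limma adjusted p = 0.000292) and than 30-day skin by 2.08 ± 0.41 (adjusted p = 0.000842). The Sprr2h probe set ends in _s_at, a mark of probes that match several transcripts, although the annotation gives only Sprr2h. The rise may therefore not be that of Sprr2h alone. The sets of S100a8, the brighter set of S100a1 and the second Lor set carry the same mark. Sprr1b, also called cornifin, had 10.98, 10.95, 10.53, 11.05 and 10.96 in culture, 6.87, 8.85, 8.99, 8.92 and 9.13 in 30-day skin and 7.89 and 8.68 in newborn skin. Culture was again above every skin sample, by 2.61 ± 0.47 against newborn skin (adjusted p = 0.00064). Sprr2d differed from newborn skin by 1.85 ± 0.18, Sprr2j-ps, a pseudogene, by 1.08 ± 0.26, and Sprr2i by 0.92 ± 0.18, all past the threshold. The call for Sprr2j-ps was lost without newborn skin replicate 2 (adjusted p = 0.0552). Sprr2k was 0.85 ± 0.36 from newborn skin and missed it (adjusted p = 0.0949), and Sprr2f and Sprr3 missed it against both skins.

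Sprr1a, a close relative of Sprr1b, went against the others. It had log2 values of 11.08, 11.31, 11.41, 11.42 and 11.45 in culture, 11.65, 12.66, 12.74, 12.84 and 12.73 in 30-day skin and 11.69 and 11.93 in newborn skin. Every culture was below every skin sample, and the log2 difference was -1.19 ± 0.19 against 30-day skin (limma adjusted p = 0.000161) and -0.48 ± 0.25 against newborn skin (adjusted p = 0.179). Without 30-day skin replicate 1, whose spread entered the common error, the comparison with newborn skin gave the same difference and passed the threshold (adjusted p = 0.0063).

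S100a8 and S100a9 form the heterodimer calprotectin, abundant in neutrophils and in injured epidermis. S100a9 had log2 values of 7.82, 7.84, 9.62, 9.42 and 9.50 in culture, 4.78, 5.04, 5.18, 5.14 and 5.17 in 30-day skin and 5.43 and 5.71 in newborn skin. Culture was above all skin samples, by 3.27 ± 0.44 against newborn skin (limma adjusted p = 5.81e-05) and 3.78 ± 0.33 against 30-day skin (adjusted p = 6.42e-07). S100a8 had 8.02, 7.90, 9.45, 9.38 and 9.30 in culture, 7.03, 7.40, 7.29, 6.90 and 7.0 in 30-day skin and 6.23 and 6.32 in newborn skin, with differences of 2.53 ± 0.38 and 1.68 ± 0.29 (adjusted p = 0.000146 and 0.000273). The array means of the neutrophil markers were 5.70 to 5.94 in culture, 5.62 to 5.89 in 30-day skin and 5.57 to 5.72 in newborn skin. Of 9 such markers measured, Mmp9, a protease, was 2.73 ± 0.24 higher in culture than in newborn skin (adjusted p = 1.18e-06) and Camp 0.92 ± 0.21 lower (adjusted p = 0.00333), and the other 7 passed the threshold in neither direction. The part of neutrophils in the S100a8 and S100a9 differences was not tested.

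S100a11 and S100a10 lie at the far end of the cluster from the other S100a genes. The set shared by S100a11, S100a11-ps and Gm12854 had log2 values of 12.62, 12.58, 12.08, 12.39 and 12.37 in culture, 11.05, 10.96, 10.90, 10.47 and 10.65 in 30-day skin and 11.11 and 11.12 in newborn skin. It was higher in culture by 1.30 ± 0.17 against newborn skin (limma adjusted p = 3.85e-05) and by 1.60 ± 0.13 against 30-day skin (adjusted p = 2.08e-07). S100a10, the partner of annexin A2, had 12.17, 12.14, 11.18, 11.27 and 11.47 in culture, 9.99, 10.36, 10.34, 10.09 and 10.20 in 30-day skin and 11.11 and 11.07 in newborn skin. Culture differed by 1.45 ± 0.18 from 30-day skin (adjusted p = 2.11e-05) and by 0.56 ± 0.24 from newborn skin, which missed the threshold (adjusted p = 0.1). The FVB cultures differed from newborn skin by 0.22 ± 0.13 (adjusted p = 0.225). On the second S100a10 set the means were 9.7 in culture, 8.67 in 30-day skin and 9.25 in newborn skin. Culture passed the threshold on that set against 30-day skin and missed it against newborn skin. Anxa1 and Anxa2, which encode the annexins that S100A11 and S100A10 bind, were 1.07 ± 0.22 and 0.59 ± 0.15 higher in culture than in newborn skin (adjusted p = 0.00187 and 0.00653). S100a6 was 0.37 ± 0.10 higher than newborn skin (adjusted p = 0.0138), a call lost without either newborn sample (adjusted p = 0.104 and 0.077).

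Several of the S100a genes lower in culture are known from other cells of the skin. S100a3, a protein of the hair cuticle, had log2 values of 4.83, 4.93, 4.75, 4.83 and 4.80 in culture, 10.51, 10.36, 10.37, 10.93 and 10.94 in 30-day skin and 9.49 and 9.49 in newborn skin. The ranges were separate, and culture differed by -4.66 ± 0.16 from newborn skin (limma adjusted p = 9.23e-11) and by -5.79 ± 0.12 from 30-day skin (adjusted p = 3.6e-13). S100a1, a calcium sensor of muscle, differed from newborn skin by -2.16 ± 0.14 on its brighter set and by -1.40 ± 0.18 on the other. S100a13 was lower by 1.44 ± 0.15, and S100a4, a gene of mesenchymal cells, by 0.91 ± 0.21 (adjusted p = 0.00449), a call lost without newborn skin replicate 2 (adjusted p = 0.0724). The hair shaft, muscle and fibroblast markers given above were all lower in culture, in 9 of 9, 6 of 6 and 7 of 7 genes, and their part in these differences was not tested. S100a14 and S100a5 passed the threshold in no comparison: S100a14 had log2 values of 10.41, 10.50, 10.34, 10.41 and 10.35 in culture, 10.03, 10.49, 10.58, 10.45 and 10.41 in 30-day skin and 10.17 and 10.48 in newborn skin, which overlap.

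Within skin, the Lce1 genes and several other late envelope genes were lower at 30 days. In 30-day skin 16 members were lower and 4 higher than in newborn skin, against 7.36% and 4.75% of all probe sets, and the median log2 difference was -0.32 over the members and 0.00 over all. All 11 Lce1 sets were among the 16, with a median of -1.85. Lce1h differed by -2.95 ± 0.22 (limma adjusted p = 2.35e-06), Lce1f by -2.69 ± 0.39 and -1.85 ± 0.19 on its 2 sets, Lce1i by -2.17 ± 0.30 and Lce1d by -2.10 ± 0.24. No array of 30-day skin reached a newborn one for any of the 11 Lce1 sets, where 17.6% of all probe sets lay below the newborn arrays without overlap. These calls rest on 2 newborn samples: without newborn skin replicate 1 there were 9 lower members, 7 of them Lce, and without replicate 2 also 9, 6 of them Lce. With strain as a covariate 7 of the 11 Lce1 sets were lower. Both Lce1a1 sets, Lce1g and Lce1l then missed the threshold (limma adjusted p = 0.0912, 0.188, 0.106 and 0.0633). The covariate takes its strain effect from the cultures alone, so it does not separate age from strain in skin. With the most similar arrays averaged and counted as 1, a setting chosen after seeing the data, 4 members were lower and 1 higher.

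Among the other members, Hrnr was lower in 30-day skin by 2.96 ± 0.27 (limma adjusted p = 1.15e-05), Lor by 0.72 ± 0.15 on its brightest set and 1.43 ± 0.26 on the second, and Rptn by 0.96 ± 0.26. The calls for Lor on its brightest set and for Rptn were lost without newborn skin replicate 1 (adjusted p = 0.117 and 0.201), and that for Rptn also without replicate 2 (0.157) and without 30-day skin replicate 2 (0.051). With strain as a covariate the differences were -0.77 and -0.72 for these Lor sets and -0.29 for Rptn (adjusted p = 0.051, 0.151 and 0.654). S100a10 was lower by 0.89 ± 0.24 (adjusted p = 0.0294), and its second set missed the threshold. That call was lost without either newborn sample (adjusted p = 0.178 and 0.186), without 30-day skin replicate 4 or 5 (0.0567 and 0.0512) and with the replicate block (0.167). The 4 higher members were Tchh by 1.25 ± 0.21, S100a3 by 1.13 ± 0.16, S100a1 by 1.04 ± 0.14 on 1 of its 2 sets and Ivl by 1.0 ± 0.29 (adjusted p = 0.0373). The call for Ivl was lost without either newborn sample (0.66 and 1.35, adjusted p = 0.384 and 0.0655) and without any 1 of 30-day skin replicates 2 to 5 (adjusted p = 0.0641 to 0.074). Hair shaft markers were higher in 30-day skin in 9 of 9 genes, with a median log2 difference of 2.10, and the part of hair in the Tchh and S100a3 differences was not tested. Because strain differs with age in skin, the effects of age and strain cannot be told apart here.

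No Sprr set passed the threshold between the skins. This outcome changed without 30-day skin replicate 1, with strain as a covariate, with the replicate block and with arrays centred on junction genes. Sprr2d differed by -0.65 with the block and by -0.89 with the centring (limma adjusted p = 0.0453 and 0.000684). That centring lowers every difference between the skins by 0.43. The covariate subtracts the strain difference seen among the cultures from the difference between the skins. Its values therefore do not separate age from strain in skin. With the covariate the set shared by Sprr2a1 and Sprr2a2 was lower in 30-day skin by 2.04, the set shared with Sprr2a3 by 1.84, Sprr2k by 1.20 and Sprr2j-ps by 0.94, and Sprr2i was higher by 0.69 (limma adjusted p = 3.39e-05, 0.000689, 0.00111, 0.00187 and 0.0401). 30-day skin replicate 1 was below the other 4 arrays of its group in 7 of 11 Sprr sets and above them in 11 of 13 Lce sets, where over all probe sets 29.6% were below and 29.3% above. Sprr1b was 6.87 in replicate 1, against 8.85 to 9.13 in the other 30-day samples. Without it, 9 members were higher and 19 lower in 30-day skin, and the higher ones included Sprr2h by 1.71, Sprr1a by 0.93 and Sprr1b by 0.69 (limma adjusted p = 0.00052, 0.000206 and 0.032). Flg, which missed the threshold at -1.55 ± 0.52 (adjusted p = 0.0697), stood at -1.99 without it, past the threshold (adjusted p = 0.000334). Its ratio of 3' to 5' actin signal, given above, was the highest of all arrays, and the part of RNA quality in these values was not tested.

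Strain could be compared within culture, where 2 cultures were of mixed background and 3 were FVB. In mixed-strain cultures 6 members were higher and 3 lower than in FVB cultures, against 3.91% and 5.3% of all probe sets. With arrays centred on their medians the split was 6 higher and 5 lower. The probe set shared by Sprr2a1 and Sprr2a2 had log2 values of 12.37 and 12.52 in mixed-strain cultures and 10.79, 10.72 and 10.77 in FVB cultures, a difference of 1.69 ± 0.15 (limma adjusted p = 2.3e-05). Sprr2k had 8.0 and 7.96 in mixed-strain cultures and 6.47, 6.55 and 6.85 in FVB cultures, a difference of 1.36 ± 0.14 (adjusted p = 5.46e-05). The FVB cultures were thus near the 6.27 and 6.37 of newborn skin for Sprr2k. Sprr2j-ps was higher by 0.97 ± 0.12 and S100a10 by 0.85 ± 0.13.

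The calprotectin genes ran the opposite way. S100a9 had log2 values of 7.82 and 7.84 in mixed-strain cultures and 9.62, 9.42 and 9.50 in FVB cultures, a difference of -1.68 ± 0.14 (limma adjusted p = 1.13e-05). S100a8 had 8.02 and 7.90 in mixed-strain cultures and 9.45, 9.38 and 9.30 in FVB cultures, a difference of -1.42 ± 0.14 (adjusted p = 6.42e-05). Each of these genes was still higher in both kinds of culture than in every skin sample. Calls for Lce1h (0.66 ± 0.17, adjusted p = 0.0259) and Tchh (-0.66 ± 0.14, adjusted p = 0.00906) were lost without single cultures, with adjusted p of 0.188 and 0.0865 without culture replicate 1. Other markers moved with strain: suprabasal markers averaged 6.35 to 6.42 in mixed-strain cultures, against 7.30 to 7.38 in FVB ones. The Schwann cell and melanocyte markers averaged 8.87 to 8.88 in mixed-strain cultures, against 7.25 to 7.37 in FVB ones. Fibroblast markers averaged 6.57 to 6.63 in mixed-strain cultures, against 5.88 to 5.97 in FVB ones. Whether these cultures also differed by day or litter is not stated in the labels, and the part of these differences was not tested.

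**Figure D5:**
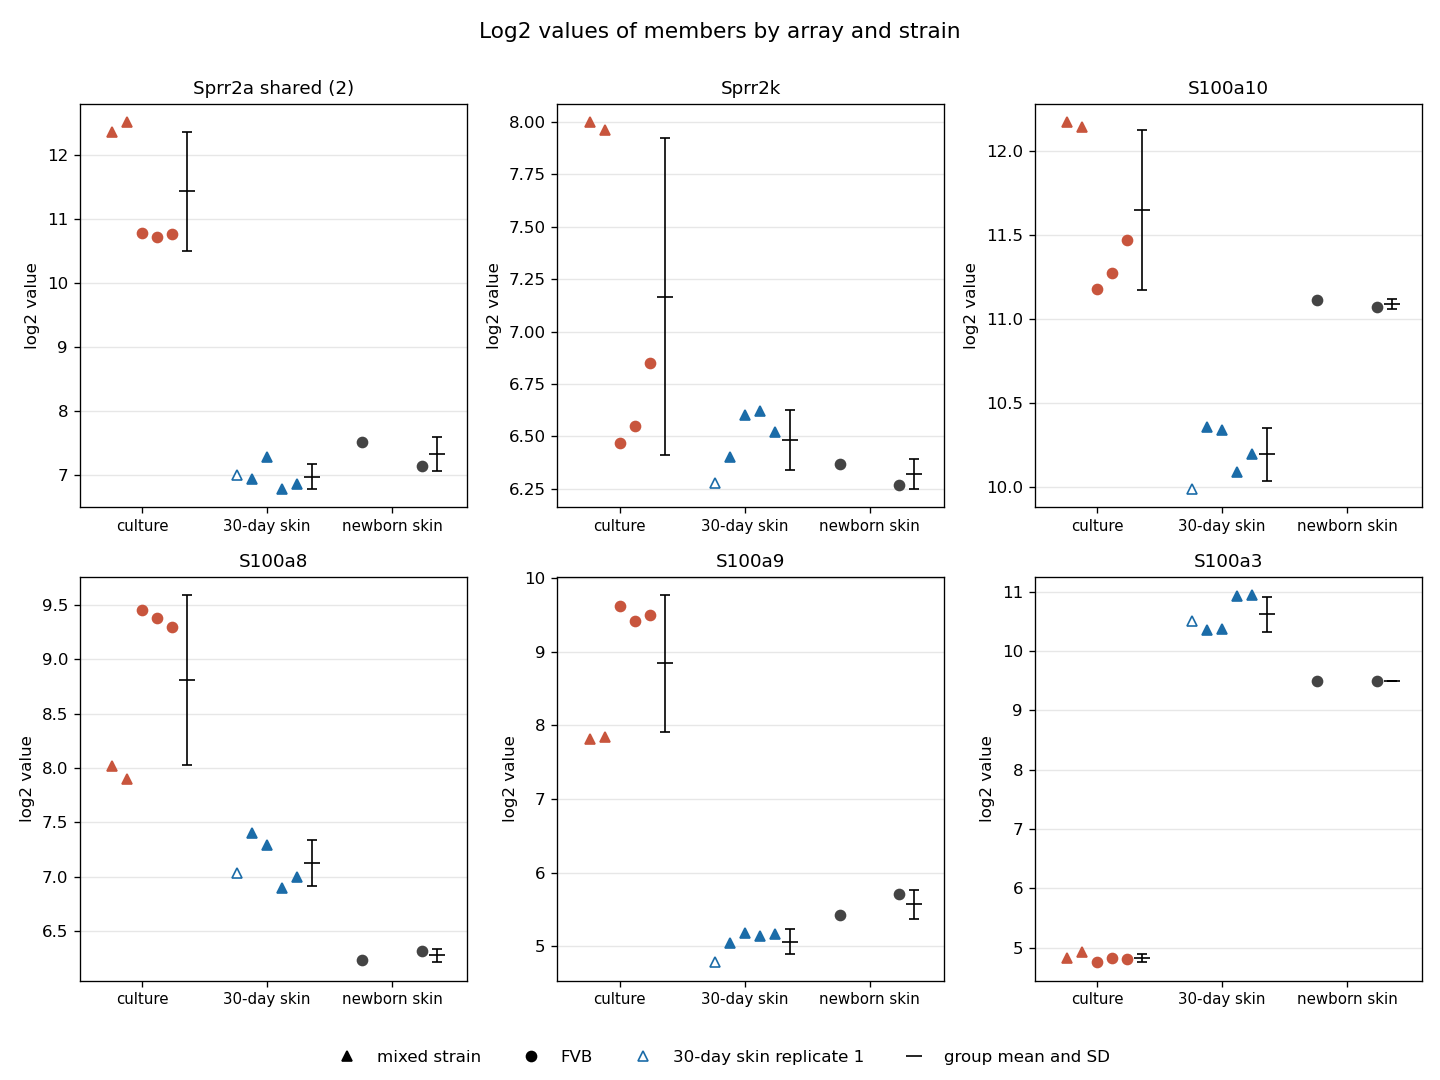
Log2 values (vertical axis) in each array of culture, 30-day skin and newborn skin for the probe set shared by Sprr2a1 and Sprr2a2, Sprr2k, S100a10, S100a8, S100a9 and S100a3. Triangles are mixed-strain and circles FVB samples, the open triangle is 30-day skin replicate 1, and black bars are group means and SDs; mixed-strain cultures lie above FVB cultures for Sprr2a, Sprr2k and S100a10 and below them for S100a8 and S100a9.

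With strain and age matched, FVB cultures against newborn FVB skin, 23 members were lower and 12 higher, where 14.8% and 19.6% of all probe sets were. All 11 Lce1 sets were lower, with a median log2 difference of -4.39, and 8 of 11 Sprr sets were higher. Sprr2f, which missed the threshold with all cultures pooled, was higher by 0.74 ± 0.23 (limma adjusted p = 0.0204), a call lost without culture replicate 3 or 4 (0.0555 and 0.0688) or without newborn skin replicate 1 or 2 (0.0796 and 0.115). Ivl missed it at -0.69 ± 0.26 (adjusted p = 0.0535). Under the scaling on junction genes this comparison gave 35 lower and 8 higher, where 76.5% and 3.11% of all probe sets were.

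Genes that work with the complex were examined as lists. Of 20 measured partners of the cornified envelope (transglutaminases, crosslinked proteins, processing enzymes and the keratins of the upper layers), 16 were lower and 0 higher in culture than in newborn skin, with a median log2 difference of -1.33, where 14.7% of all probe sets were lower and 17.6% higher. The largest were Krt10 at -4.77 ± 0.31 and Krt1 at -4.18 ± 0.59, the keratin pair of suprabasal cells, followed by Padi3, a deiminase, at -3.00 ± 0.29 and Krt77 at -2.86 ± 0.11. Tgm1, the membrane transglutaminase that assembles the envelope, differed by -1.10 ± 0.15. Klk7, a desquamation protease, missed the threshold at -0.59 ± 0.41 (limma adjusted p = 0.327). Against 30-day skin 15 were lower and 1, Asprv1, which processes filaggrin, was higher by 0.87 ± 0.15, where 18.2% and 25.1% of all probe sets were. In 30-day skin 8 were lower and 4 higher than in newborn skin, where 7.36% and 4.75% of all probe sets were. Krt77 stood at 3.49 ± 0.11 and Krt1 at -2.65 ± 0.59. The culture differences pool both kinds of culture. Krt1 averaged 7.15 in mixed-strain cultures, 9.44 in FVB cultures and 12.71 in newborn skin, and Krt10 7.64, 8.81 and 13.11. In mixed-strain cultures 7 of 20 partners were lower than in FVB cultures and 0 higher, where 5.3% and 3.91% of all probe sets were. Against newborn skin, FVB cultures had 14 lower and 0 higher, where 14.8% and 19.6% of all probe sets were.

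Of 20 measured regulators of the complex, 4 were lower and 3 higher in culture than in newborn skin, shares near the 14.7% and 17.6% of all probe sets. Lower were Cebpa at -1.89 ± 0.25, Prdm1, the repressor Blimp1, at -1.47 ± 0.15, Klf4, needed for the barrier in mice, at -0.81, and Satb1, which organises chromatin at this locus in mice, at -0.81 ± 0.27 (limma adjusted p = 0.0316). Higher were Nfe2l2, the oxidative stress factor Nrf2, at 1.29 ± 0.21, and the AP-1 subunits Fosl1 at 1.17 ± 0.20 and Junb at 0.73. Gata3 missed the threshold at -0.88 ± 0.33 (adjusted p = 0.0609). These differences pool both kinds of culture, and Klf4 averaged 8.5 in mixed-strain cultures, 9.35 in FVB cultures and 9.82 in newborn skin. Between the skins Satb1 was lower at 30 days by 1.90 ± 0.27 (adjusted p = 0.00041), and Grhl1, Prdm1 and Maf were higher. In mixed-strain cultures 9 of the 20 regulators were lower than in FVB cultures and 1 higher, where 5.3% and 3.91% of all probe sets were, the largest being Vdr, the vitamin D receptor, at -1.39 ± 0.11 (adjusted p = 8.39e-06). Of 7 measured S100 genes outside the cluster and S100 partners, 3 were higher in culture than in newborn skin, namely Anxa1, Anxa2 and S100g at 0.79, and 0 lower, where 17.6% and 14.7% of all probe sets were. Smcp was the only other gene of the locus measured, and it differed by -0.00 from newborn skin and -0.08 from 30-day skin, missing the threshold in both.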

How the data were processed

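RNA of 12 samples was measured on Affymetrix mouse arrays, and the deposited table holds log2 values made by RMA, per the submitters' processing notes (no RMA version is named there). No detection calls were used, and the precision of a difference depends on the number of arrays and on the spread among them. Of 22690 probe sets, 64 controls were left out. Gene names come from the platform annotation supplied with the series. Groups follow the sample titles. Differences were estimated for all 22626 probe sets by lmFit and eBayes from limma 3.58.1, run in R 4.3.3, with two-sided p-values adjusted over all of them by Benjamini-Hochberg and a threshold of 0.05, with a mean per group, and with separate means per strain of culture in a second fit. The script was tested on simulated data. Errors of differences are standard errors. A gene with several probe sets is represented by that with the highest mean, and the others are given beside it. Array values are given for the measured single genes and, per subfamily, for members with the largest differences and some that missed the threshold. The members and lists were chosen with earlier results of these data known. Promoter letters were searched in RefSeq windows of GRCm38.p6. Alternatives were 1 probe set per gene, leaving out the dimmest 40% of probe sets, other centring, an intensity trend, a replicate block, strain as a covariate, leaving out each array, and averaging the most similar arrays.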

Additional observations from a re-analysis of the deposited data

Results flagged for a closer look

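In 80 groups of 5 arrays, the highest or lowest sample of a member was set against the other 4 by Dixon's criterion, which chance passes in about 1 in 20 groups, and 9 samples passed. Of these, 8 were 30-day skin replicate 1. It was low for Sprr1b (6.87, against 8.85 to 9.13 in the other 30-day samples), Sprr2h (6.89, against 8.92 to 9.63), Sprr1a (11.65, against 12.66 to 12.84), Sprr2d (5.23, against 5.70 to 5.82), Ivl (6.84, against 7.59 to 7.79) and S100a16 (11.23, against 11.63 to 11.78). It was high for Lce1a2 (9.39, against 7.92 to 8.24) and Lce1d (9.13, against 8.07 to 8.34). The remaining sample was culture replicate 3, low for Sprr1b (10.53, against 10.95 to 11.05).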

How the results depend on the processing

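The age comparison depended most on the processing. Its 4 higher and 16 lower members became 7 and 14 once strain was a covariate (Lce lower calls 7, against 11; Sprr 1 higher and 4 lower, against 0 and 0; single genes 1 lower, against 4), and 1 and 4 after averaging the most similar arrays, a setting chosen after seeing the data. Leaving out single arrays gave 3 to 9 higher and 9 to 19 lower, with 9 higher and 19 lower without 30-day skin replicate 1, and 9 lower without either newborn sample. In mixed-strain against FVB cultures the 6 higher became 3 with similar arrays averaged, and the 3 lower became 5 with arrays centred on their medians and 5 with an intensity trend, and ranged from 2 to 7 without single arrays, with 7 without 30-day skin replicate 1 and 5 without replicate 5. The cause was not tested. In FVB culture against newborn skin the 23 lower became 35 with arrays centred on junction genes, a construction that lowers each difference. The counts of the cultures against each skin stayed within 1.5 times the reported ones under the alternatives run, with 34 lower against newborn skin under that centring. Replicate numbers did not pair samples (correlations of same-numbered deviations -0.279 to 0.196), and with them as a replicate block 12 members were higher and 24 lower in culture than in newborn skin, 13 and 22 against 30-day skin, and 3 and 14 between the skins.

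Centring on junction genes lowers every difference by the same amount and turned the sign of further members that missed the threshold both ways; those past it before or after are given here. Against newborn skin these were S100a14 (-0.69), S100a5 (-0.63), S100a6 (-0.40), Sprr3 (-0.61), Lce3a (-0.54), Lce3c (-0.56) and 2 Rptn sets (-0.56 and -0.54). Against 30-day skin they were S100a14 (-0.33), Sprr3 (-0.31) and Lce3c (-0.32), and between the skins S100a14 (-0.37). In FVB culture against newborn skin they were S100a14 (-0.73), S100a5 (-0.67), S100a6 (-0.40), S100a10 (-0.55), Sprr2f (-0.02), Sprr2j-ps (-0.07), Sprr2k (-0.46), Sprr3 (-0.69), Lce3c (-0.45) and 2 Rptn sets (-0.53 and -0.57). Strain as a covariate, which takes its strain effect from the cultures alone, turned the sign between the skins for S100a9 (1.18), Sprr2j-ps (-0.94) and Sprr2k (-1.20). With 2 newborn samples, 2 mixed-strain cultures and strain tied to age in skin, small differences in those comparisons were not resolvable here, and dim probe sets have compressed differences.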
